A study of Saccharomyces cerevisiae with 18 samples.

Results

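The genes described are 10 members of the glutathione and thioredoxin systems of budding yeast: TRX1, TRX2, TRR1, GRX1, GRX2, GRX4, GRX5, GLR1, GSH1 and GSH2. They were found by the gene symbol that the array platform's annotation gives to each probe set, the group of short probes that measures a transcript. All 10 symbols were matched, each by 1 probe set, among 5900 probe sets in the table and 5716 that were tested. The symbols belong to the systematic names YLR043C, YGR209C, YDR353W, YCL035C, YDR513W, YER174C, YPL059W, YPL091W, YJL101C and YOL049W, in that order.

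Glutathione is a small thiol peptide that Gsh1 and Gsh2 build from glutamate, cysteine and glycine and that Glr1 keeps in its reduced form with electrons from NADPH. Glutaredoxins use reduced glutathione to undo disulfides on proteins, and thioredoxins do the same with electrons that thioredoxin reductase, Trr1, also takes from NADPH. The glutaredoxins fall into classes: Grx1 and Grx2 carry a dithiol active site and act as oxidoreductases, whereas Grx4 and Grx5 carry a monothiol site and are known for the handling of iron-sulfur clusters. In yeast, several of these genes are known targets of the transcription factors Yap1 and Skn7 under oxidative stress.

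Transcripts were measured in the diploid laboratory strain BY4743, which is homozygous for the deletion alleles ura3Δ0, leu2Δ0 and his3Δ1 and heterozygous for lys2Δ0 and met15Δ0, so that all groups share these alleles. Cultures growing at 30 °C in a minimal medium that held added uracil were taken in log phase. Treated cultures were exposed for 20 min to 2.5 mg/mL of a dried extract of Equisetum arvense (field horsetail, a medicinal plant). Control cultures, without extract, are called non treated in the labels and the study's methods, and vehicle only in its results. The extracts were USA #2, USA #6, USA #7, China #8, Europe #11 and India #13, named after where the plants came from, each a mixture of many compounds that differ between origins. There were 4 control arrays, 4 with China #8 and 2 with each of the other 5 extracts, 18 in all, each from a replicate culture, and the design asks how yeast responds to each extract and whether the extracts differ.

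Values are log2 signals of Affymetrix Yeast Genome 2.0 arrays, so that a difference of 1 is a doubling of the signal. Array medians lay between 9.55 and 9.64. An array carries no count of molecules, and the number of arrays limits the precision. The sample titles open with 1 of 2 dates, here called batches: control replicates 1 and 2 and China #8 replicates 1 and 2 form batch 1 and all other arrays form batch 2. The 4 control and China #8 arrays of batch 2 stood apart in the array's 18S ribosomal RNA controls. The signal of the last of these control probe sets minus that of the first was -1.29 to -0.63 in those 4 arrays and -3.32 to -2.64 in the other 14, and the calls with single extracts are given also without those 4 arrays where that ended the call or bears on the gene. Of the deleted genes, LEU2 and URA3 had median log2 signals of 3.56 and 3.23, lower than all but 1.91% and 0.752% of probe sets, whereas HIS3, whose deletion allele removes only part of the gene, had a median of 11.55.

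The 4 glutaredoxin genes and GSH1 had the widest spans of the condition means, and the other 5 members stayed within narrow ranges. GRX1 and GRX2 were lower with several extracts than in control, GRX4 was higher with several, and GSH1 was higher with India #13. GRX5 had the widest span but also the widest spread between replicates, and it was called against control with no extract. The means of the 7 conditions spanned 0.83 for GRX5, 0.75 for GRX4, 0.74 for GRX1, 0.59 for GSH1 and 0.46 for GRX2 on the log2 scale. These spans were wider than those of 82.2%, 76.9%, 76.2%, 62.9% and 45.4% of the probe sets tested. For TRX1, TRX2, TRR1, GLR1 and GSH2 the span was 0.21 to 0.26, which is a ratio of 1.16 to 1.20 between the highest and the lowest condition, and 8.92% to 14.47% of probe sets had a narrower one.

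**Figure D1:**
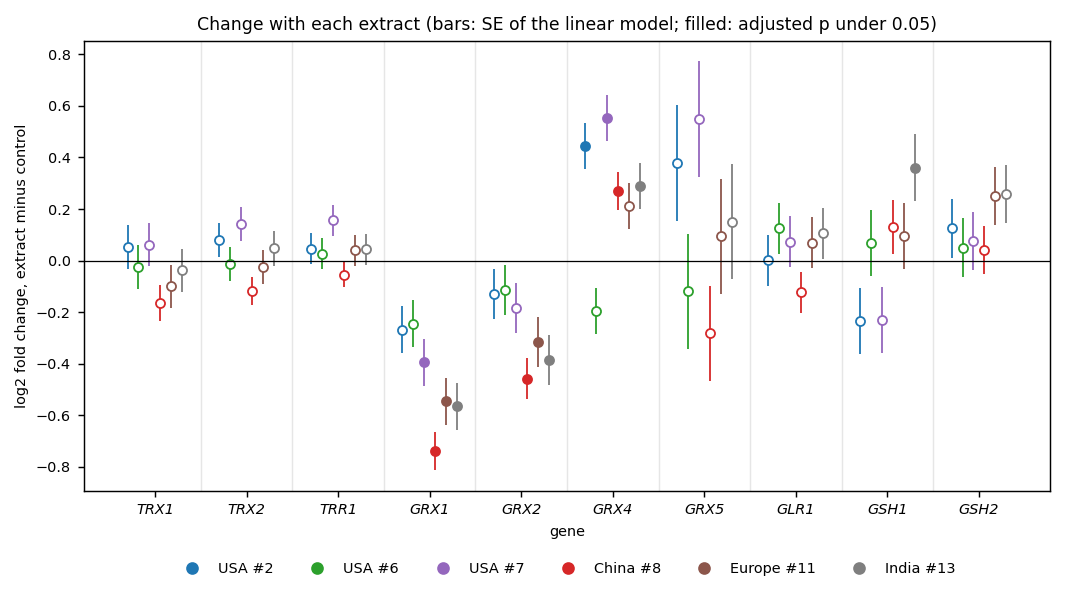
Log2 fold change (vertical axis, extract minus control) of the 10 member genes (horizontal axis) with each of the 6 extracts (colours). Points are estimates of the linear model, bars are standard errors, and filled points have an adjusted p under 0.05. GRX1 and GRX2 lie below 0 with every extract, with GRX1 lowest with China #8 at -0.74, and GRX4 lies above 0 with every extract but USA #6.

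Each extract was compared with control in a linear model (limma) over all 18 arrays, with Benjamini-Hochberg adjustment over all probe sets tested and a threshold of 0.05. With China #8, 3 of the 10 members were called (GRX1, GRX2 and GRX4), beside 40% of all probe sets tested. India #13 changed 4 members (GRX1, GRX2, GRX4 and GSH1) beside 28.8% of all probe sets, and Europe #11 changed 2 (GRX1 and GRX2) beside 22.4%. USA #7 changed 2 members (GRX1 and GRX4) beside 39.6% of all probe sets, and USA #2 changed only GRX4, beside 19.1%. With USA #6, limma called no member beside 7.02% of all probe sets, and 2 members, GRX1 and GRX4, had an unadjusted p under 0.05. The members' share of calls was above that of all probe sets with India #13 and below it with the other extracts. The India #13 count includes GSH1, a call that passed in only 10 of 29 alternatives. Among 10 members such differences in share rest on few genes, and they were not tested. The median log2 fold change of the 10 members lay between -0.12 and 0.08 over the 6 extracts, beside a median over all probe sets that was at most 0.03 in size.

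The contrast that the study's methods describe compares the 12 arrays of all extracts except USA #6 with the 4 control arrays under the Bonferroni correction. No member passed it in limma, where 3.81% of all probe sets did, and 3 members had an unadjusted p under 0.05. With the Benjamini-Hochberg adjustment the same 3 members, GRX1, GRX2 and GRX4, passed beside 30.2% of all probe sets. On all 12 extract arrays GRX1 and GRX2 were below every control array, as were 5.06% of probe sets, and GRX4 was above every control array, as were 6.65%.

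GRX1, a dithiol glutaredoxin with oxidoreductase and peroxidase activity, fell most of the members. Its log2 signal was 12.71, 12.95, 12.76 and 12.88 in the control arrays and 12.02, 12.18, 11.96 and 12.18 with China #8. It was 12.25 and 12.32 with Europe #11, 12.35 and 12.18 with India #13, and 12.49 and 12.38 with USA #7. The values were 12.53 and 12.59 with USA #2 and 12.55 and 12.61 with USA #6. Every one of the 14 extract arrays was below the lowest control array, and the China #8 arrays were the lowest, with the highest of them level with the lower India #13 array.

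GRX1 fell with China #8 to 59.9% of the control signal, a log2 fold change of -0.74 (SE 0.07, adjusted p = 5.45e-06). It fell to 67.6% of control with India #13 (-0.56, SE 0.09, adjusted p = 6.15e-04) and to 68.5% with Europe #11 (-0.55, SE 0.09, adjusted p = 0.00128). With USA #7 it fell to 76.1% of control (-0.39, SE 0.09, adjusted p = 0.00439). The signal was 83.0% of control with USA #2 (-0.27, SE 0.09, adjusted p = 0.0526) and 84.4% with USA #6 (-0.24, SE 0.09, adjusted p = 0.132), and neither passed the threshold. The change with all extracts was -0.54 (SE 0.10), with a Bonferroni-corrected p of 0.333 and a Benjamini-Hochberg p of 8.69e-04. The call with USA #7 was lost without USA #7 replicate 2 (adjusted p = 0.0574), and that with USA #2 was gained without control replicate 1 (adjusted p = 0.0311). On leaving out the 4 batch 2 arrays of control and China #8, the change with China #8 was -0.73 (adjusted p = 3.43e-04).

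Ordered by their mean GRX1 signal, the conditions ran from control (12.83 ± 0.112, SD, n = 4) through USA #6, USA #2, USA #7, Europe #11 and India #13 down to China #8 (12.09 ± 0.113, n = 4). Neighbours in this order had overlapping arrays for USA #6 and USA #2, for Europe #11 and India #13, and for India #13 and China #8. The arrays of control and USA #6, of USA #2 and USA #7, and of USA #7 and Europe #11 did not overlap, although no pair of neighbouring extracts passed the test.

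GRX2, the paralog of GRX1 and the more active glutaredoxin of the cell, followed the same order at a smaller size. The control arrays had log2 signals of 13.19, 13.40, 13.29 and 13.19 and the China #8 arrays 12.80, 12.93, 12.66 and 12.85. India #13 gave 13.03 and 12.75 and Europe #11 12.96 and 12.95. The USA extracts gave 13.10 and 13.18 for USA #2, 13.11 and 13.20 for USA #6 and 13.14 and 13.03 for USA #7. All arrays but USA #6 replicate 2 were below the lowest control array.

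China #8 lowered GRX2 to 72.8% of control (-0.46, SE 0.08, adjusted p = 4.35e-04), India #13 to 76.6% (-0.38, SE 0.10, adjusted p = 0.00990) and Europe #11 to 80.4% (-0.31, SE 0.10, adjusted p = 0.0320). The estimates with the USA extracts did not pass the threshold and lay between -0.18 and -0.12. The call with Europe #11 was lost without control replicate 2 or 3 or either Europe #11 array (adjusted p = 0.0543 to 0.165), and that with India #13 without India #13 replicate 2 (-0.24, adjusted p = 0.146). With Europe #11 the change did not pass with batch 2 alone (-0.29, adjusted p = 0.0549) but passed with batch as a block (-0.27, adjusted p = 0.0485). A model of only the extract and control called GRX2 neither with Europe #11 (adjusted p = 0.115) nor with India #13 (adjusted p = 0.0967). On leaving out the 4 batch 2 arrays of control and China #8 the change was -0.43 with China #8 (adjusted p = 0.0104). All 10 probe sets are of the kind the platform names with a plain suffix, without the marks for probes shared between transcripts, and how far probes of the paralogs bind each other's transcript was not tested.

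GRX4 encodes a monothiol glutaredoxin of cytosol and nucleus that passes the iron status of the cell to the transcription factor Aft1, and it moved the other way. Its log2 signal was 11.02, 11.23, 11.04 and 10.996 in control. It was 11.62 on both USA #7 arrays and 11.45 and 11.57 with USA #2. The China #8 arrays had 11.28, 11.44, 11.38 and 11.26, the Europe #11 arrays 11.31 and 11.25, and the India #13 arrays 11.46 and 11.25. With USA #6 it was 10.81 and 10.93, below every control array, whereas every array of the other 5 extracts was above every control array.

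USA #7 raised GRX4 to 1.47 times the control signal (0.55, SE 0.09, adjusted p = 4.72e-04) and USA #2 to 1.36 times (0.44, SE 0.09, adjusted p = 0.00498). The rise was 1.22-fold with India #13 (0.29, SE 0.09, adjusted p = 0.0268) and 1.21-fold with China #8 (0.27, SE 0.07, adjusted p = 0.00866). The estimates with Europe #11 (0.21, SE 0.09, adjusted p = 0.102) and USA #6 (-0.20, SE 0.09, adjusted p = 0.222) did not pass the threshold. The call with USA #2 was lost without USA #2 replicate 2 (adjusted p = 0.112) and that with India #13 without control replicate 4 (adjusted p = 0.0561) or India #13 replicate 1 (0.18, adjusted p = 0.300). The change with Europe #11 passed with batch as a block (0.25, adjusted p = 0.0493), with batch 2 alone (0.26, adjusted p = 0.0445) and without control replicate 2 (0.26, adjusted p = 0.0487). On leaving out the 4 batch 2 arrays of control and China #8 the change was 0.24 with both China #8 (adjusted p = 0.0937) and India #13 (adjusted p = 0.122), and neither passed.

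The order of the GRX4 means was USA #7 (11.62 ± 0.005, SD, n = 2), USA #2, India #13, China #8, Europe #11, control (11.07 ± 0.106, n = 4) and USA #6 (10.87 ± 0.087, n = 2). Arrays of neighbours overlapped from USA #2 to Europe #11. The steps from USA #7 to USA #2, from Europe #11 to control and from control to USA #6 were without overlap. Of neighbouring extracts, no pair passed the test.

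**Figure D2:**
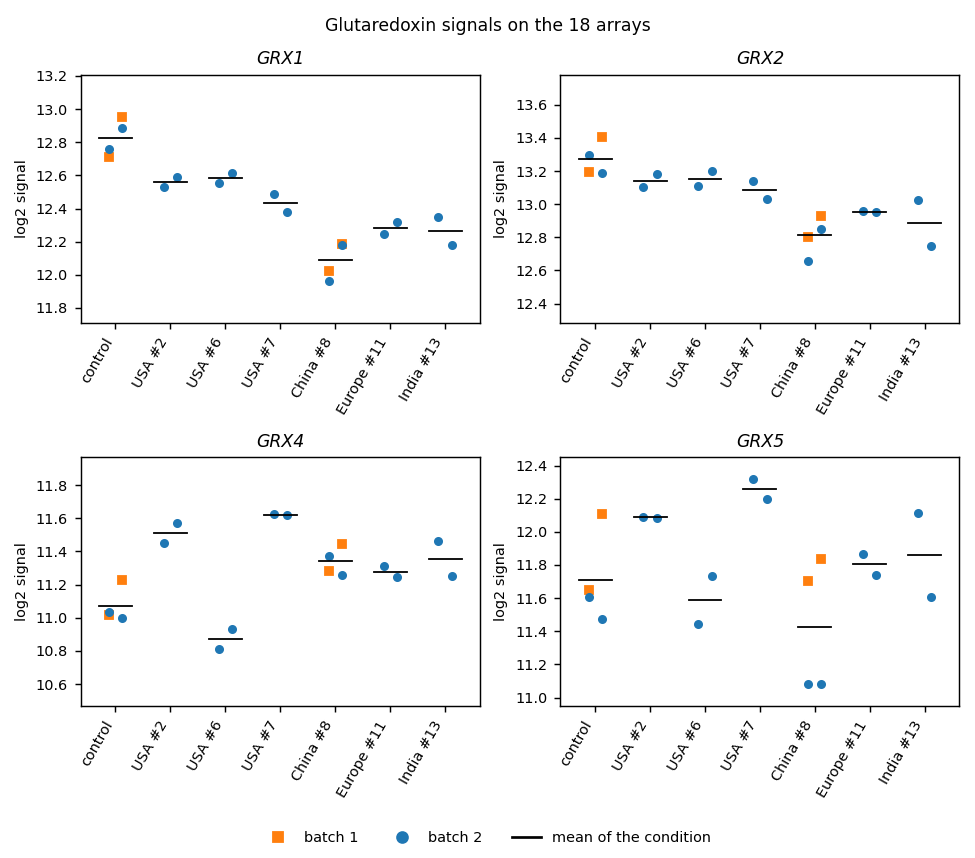
Log2 signal (vertical axis) of GRX1, GRX2, GRX4 and GRX5 on each of the 18 arrays, by condition (horizontal axis), with squares for batch 1, circles for batch 2 and a line at the mean of the condition. GRX1 is lower on all 14 extract arrays than on any control array, GRX4 is lower than control only with USA #6, and GRX5 shows the widest spread within control and China #8.

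GRX5, the monothiol glutaredoxin of mitochondria that works in the assembly of iron-sulfur clusters, had the widest span of condition means but also the widest spread between replicates. The control arrays had log2 signals of 11.65, 12.11, 11.60 and 11.48, and those with USA #7 had 12.32 and 12.20, above every control array. USA #2 gave 12.09 and 12.08, India #13 12.11 and 11.61, Europe #11 11.86 and 11.74, and USA #6 11.44 and 11.74. The China #8 arrays were split by batch, with 11.70 and 11.84 in batch 1 and 11.08 on both arrays of batch 2. The range of the control arrays, which replicate 2 widens, overlapped with every extract but USA #7.

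No extract changed GRX5 past the threshold. The estimate was 0.55 with USA #7 (SE 0.22, adjusted p = 0.0645), 0.38 with USA #2 (SE 0.22, adjusted p = 0.243) and -0.28 with China #8 (SE 0.18, adjusted p = 0.242). The control arrays of the batches differed for this gene, with means of 11.88 in batch 1 and 11.54 in batch 2. With batch as a block the change was 0.81 with USA #7 (adjusted p = 0.00140) and 0.64 with USA #2 (adjusted p = 0.00938), and with the arrays of batch 2 alone it was 0.72 (adjusted p = 0.00250) and 0.55 (adjusted p = 0.0157), and -0.46 with China #8 (adjusted p = 0.0381). Without control replicate 2 the change with USA #7 was 0.68 (adjusted p = 0.0231), and without China #8 replicate 2 it passed at 0.55 (adjusted p = 0.0449). On leaving out the 4 batch 2 arrays of control and China #8 it was 0.38 (adjusted p = 0.120).

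The China #8 response could be compared between batches, since only control and China #8 were measured in both. GRX1 differed from control by -0.73 in batch 1 and -0.75 in batch 2, and GRX2 by -0.43 and -0.48. GRX4 was 0.24 higher than control in batch 1 and 0.30 higher in batch 2. GRX5 differed from control by -0.11 in batch 1 and -0.46 in batch 2, an interaction of -0.35 (SE 0.22, unadjusted p = 0.149), and GSH1 by -0.04 and 0.31, an interaction of 0.35 (SE 0.22, unadjusted p = 0.1504). No interaction passed the adjustment in limma over the members or over all probe sets (0%), and at an unadjusted p under 0.05 there were 0 members and 10.8% of all probe sets.

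The thioredoxins Trx1 and Trx2 are cytosolic electron donors for ribonucleotide reductase, peroxiredoxins and methionine sulfoxide reductases, and Trr1 recharges them. TRX1 had log2 signals of 13.34, 13.54, 13.36 and 13.37 in control and 13.24, 13.40, 13.20 and 13.13 with China #8, which overlapped. TRX2 had 13.54, 13.61, 13.52 and 13.54 in control, 13.73 and 13.66 with USA #7, all above control, and 13.48, 13.50, 13.32 and 13.42 with China #8, all below control. TRR1 had 13.34, 13.36, 13.28 and 13.32 in control and 13.51 and 13.46 with USA #7, above every other array of the series. For all 3 genes the China #8 mean was the lowest of the 7 conditions and the USA #7 mean the highest.

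None of these differences from control passed the threshold. TRR1 with USA #7 came nearest, at 0.16 (SE 0.06, adjusted p = 0.0504), and it passed when the dim probe sets were left out (adjusted p = 0.0387), when the control probe sets were kept in the test (adjusted p = 0.0487), with batch as a block (0.18, adjusted p = 0.0240) and with trend and robust priors of the spread (adjusted p = 0.00615). TRX1 with China #8 was at -0.16 (SE 0.07, adjusted p = 0.0714) and passed without China #8 replicate 2 (-0.22, adjusted p = 0.0222) and with batch as a block (adjusted p = 0.0404). TRR1 with USA #7 was at 0.13 (adjusted p = 0.127) on leaving out the 4 batch 2 arrays of control and China #8. TRX2 was at 0.14 with USA #7 (SE 0.07, adjusted p = 0.105) and -0.12 with China #8 (SE 0.05, adjusted p = 0.101). The first passed with batch as a block (0.18, adjusted p = 0.0286), and the other passed with trend and robust priors (adjusted p = 0.0229) and after quantile normalization of the probe sets (-0.15, adjusted p = 0.0333). The 95% confidence intervals of these 3 genes with the 6 extracts lay within -0.31 and 0.29, and these intervals bound the size of any change at this number of arrays.

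GLR1, the glutathione reductase gene, had log2 signals of 12.46, 12.18, 12.09 and 12.13 in control and 12.24, 12.08, 11.99 and 12.07 with China #8. The other extracts lay between 12.19 and 12.39, within the range of the control arrays, which replicate 1 of batch 1 widens. Those extracts were measured in batch 2 only, and all their arrays were above both batch 2 control arrays (12.09 and 12.13). Its estimates ran from -0.12 with China #8 (SE 0.08, adjusted p = 0.247) to 0.13 with USA #6 (SE 0.10, adjusted p = 0.516). The change in GLR1 with India #13 was 0.11 (SE 0.10, adjusted p = 0.443). It passed with batch 2 alone (0.21, adjusted p = 0.0468) and with batch and title number together as a block (0.19, adjusted p = 0.0460).

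GSH1 encodes the enzyme that joins glutamate to cysteine, the rate-limiting step of glutathione synthesis. Its log2 signal was 10.70, 10.39, 10.20 and 10.35 in control, and the first of these, in batch 1, was above the others. India #13 gave 10.66 and 10.88, USA #2 10.22 and 10.13, and USA #7 10.10 and 10.25. China #8 gave 10.68, 10.32, 10.54 and 10.62, Europe #11 10.52 and 10.49, and USA #6 10.56 and 10.39. The India #13 mean was the highest of the 7 conditions and the USA #2 and USA #7 means the lowest, and every extract overlapped with the control arrays except that India #13 replicate 2 was above them and USA #2 replicate 2 and USA #7 replicate 1 were below them.

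GSH1 rose 1.28-fold with India #13 (0.36, SE 0.13, adjusted p = 0.0484), the only call among the genes of glutathione synthesis. It passed in 10 of 29 alternatives, with adjusted p between 0.00312 and 1, and was lost on leaving out any of the arrays but control replicate 1 and China #8 replicate 2, with the highest value without India #13 replicate 2 (adjusted p = 0.299). The change with India #13 was 0.49 with batch 2 alone (adjusted p = 0.00312) and 0.41 with batch as a block (adjusted p = 0.0301). With batch and title number together as a block it was 0.41 (adjusted p = 0.0123). On leaving out the 4 batch 2 arrays of control and China #8 it was 0.23 (adjusted p = 0.258). With China #8 the change in GSH1 was 0.13 (SE 0.10, adjusted p = 0.343). It passed in 1 of 30 alternatives, batch 2 alone (0.31, adjusted p = 0.0414). The estimates with USA #2 (-0.23, SE 0.13, adjusted p = 0.211) and USA #7 (-0.23, SE 0.13, adjusted p = 0.165) lay on the other side of 0 and did not pass.

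GSH2, whose enzyme adds glycine in the last step, had log2 signals of 11.17, 11.05, 11.16 and 10.87 in control. The India #13 arrays had 11.38 and 11.27 and the Europe #11 arrays 11.35 and 11.28, above every control array, and the other extracts overlapped with control. The differences were 0.26 with India #13 (SE 0.11, adjusted p = 0.103) and 0.25 with Europe #11 (SE 0.11, adjusted p = 0.124), and neither passed. With batch as a block they were 0.34 in both (adjusted p = 0.0200 and 0.0256), and without China #8 replicate 1 the first passed (adjusted p = 0.0476). They were 0.21 (adjusted p = 0.148) and 0.20 (adjusted p = 0.171) on leaving out the 4 batch 2 arrays of control and China #8.

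**Figure D3:**
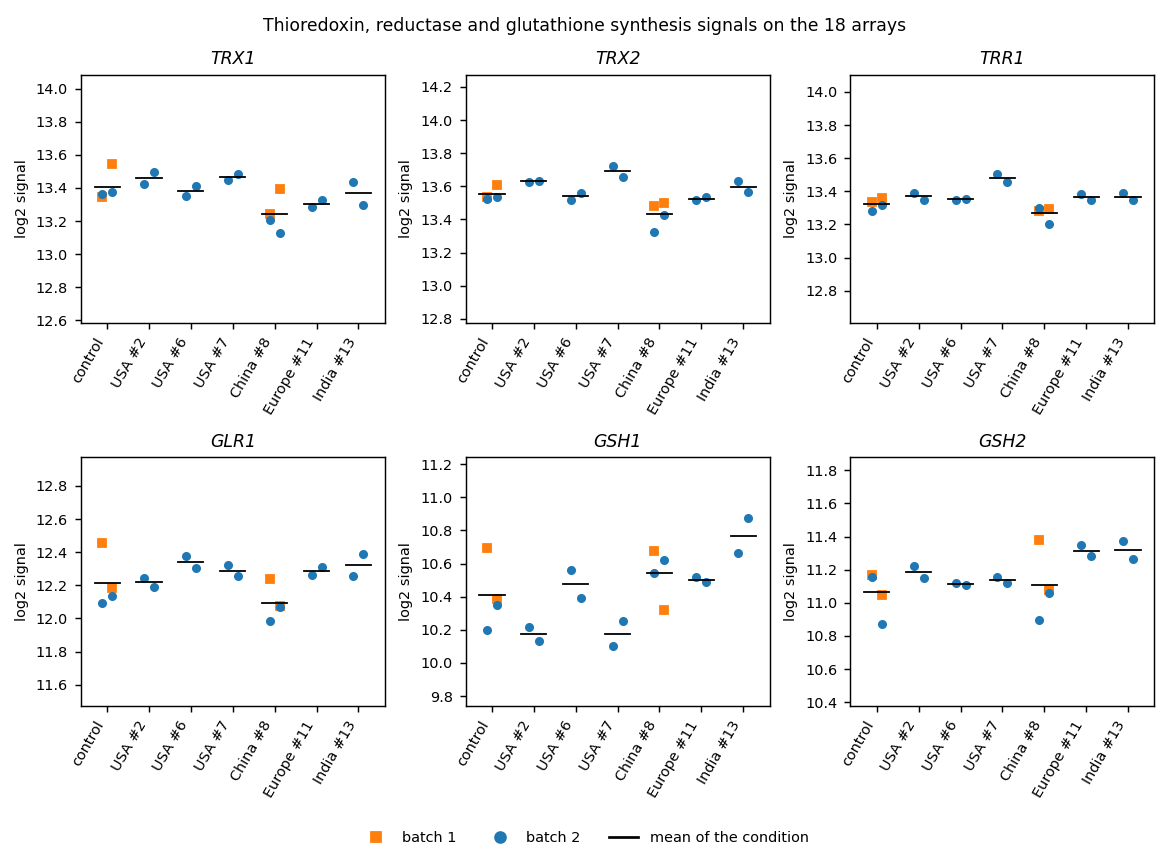
Log2 signal (vertical axis) of the thioredoxin genes TRX1 and TRX2, the reductase genes TRR1 and GLR1 and the glutathione synthesis genes GSH1 and GSH2 on each of the 18 arrays, by condition (horizontal axis), with squares for batch 1, circles for batch 2 and a line at the mean. The vertical axes all span the same height, and among these 6 genes only GSH1 with India #13 passed the test against control, at 0.36.

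Whether the extracts differed among themselves was tested without the control arrays in the contrast. The F-test over the 6 extracts called 4 members, GRX4 (adjusted p = 0.00357), GRX1 (0.00785), GSH1 (0.0345) and GRX2 (0.0482), beside 29.7% of all probe sets. TRX2 (0.0611) and GRX5 (0.0676) came next, and TRR1, TRX1, GLR1 and GSH2 had adjusted p from 0.141 to 0.420. GRX2 and GSH1 were both lost, which left 2 calls, without either array of USA #2, USA #6, USA #7 or Europe #11 or without China #8 replicate 3 or 4. GRX2 passed in 11 of 28 alternatives and was not called (0.132) on leaving out the 4 batch 2 arrays of control and China #8. With batch as a block GRX5 (0.00209), TRX2 (0.0166) and GLR1 (0.0361) were called as well, and GRX5 was also called without control replicate 2 (0.0481) and without China #8 replicate 2 (0.0311).

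Of the 150 tests of a member in a pair of extracts, 12 passed after adjustment over all probe sets and all 15 pairs, beside 5.34% over all probe sets. GRX4 was lower with USA #6 than with each of the other 5 extracts, by 0.41 (Europe #11, adjusted p = 0.0359) to 0.75 (USA #7, adjusted p = 0.00113). The difference between USA #7 and USA #2 for this gene was 0.11, with a 95% interval of -0.11 to 0.33. GRX1 was lower with China #8 than with USA #2 (-0.47, adjusted p = 0.0106), USA #6 (-0.49, adjusted p = 0.00822) and USA #7 (-0.34, adjusted p = 0.0424). Between Europe #11 and India #13 the GRX1 signal differed by 0.02, with an interval of -0.24 to 0.21 for India #13 minus Europe #11.

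The remaining calls concerned other members. GSH1 was higher with India #13 than with USA #2 and USA #7, by 0.59 in both (adjusted p = 0.0338 and 0.0342). China #8 was below USA #7 for TRX2 (-0.26, adjusted p = 0.0383) and GRX5 (-0.83, adjusted p = 0.0457). GRX2 was not called in any pair, the nearest being China #8 minus USA #6 (-0.34, adjusted p = 0.0546). TRX1, TRR1, GLR1 and GSH2 had no call among their pairs either. The count of 12 dropped to between 4 and 7 without either array of USA #2, USA #6, USA #7 or Europe #11 or without China #8 replicate 3.

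Yeast has further glutaredoxins, and the family moved in both directions. GRX7, which encodes a membrane-bound glutaredoxin of the early secretory pathway, fell with 5 extracts, from -0.84 with India #13 (SE 0.11, adjusted p = 8.51e-05) to -0.43 with USA #2 (SE 0.11, adjusted p = 0.0135). Its control mean was 11.91 ± 0.157 (SD, n = 4), with replicate 1 at 11.67 and the others between 11.96 and 12.004. GRX6, its paralog, fell only with USA #7 (-0.48, SE 0.18, adjusted p = 0.0431). GRX8 rose 1.24 on the log2 scale with India #13 (SE 0.25, adjusted p = 0.00294) and 0.77 with USA #7 (SE 0.25, adjusted p = 0.0266). GRX3, the paralog of GRX4, had estimates between -0.03 and 0.10 with the 6 extracts, none called.

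**Figure D4:**
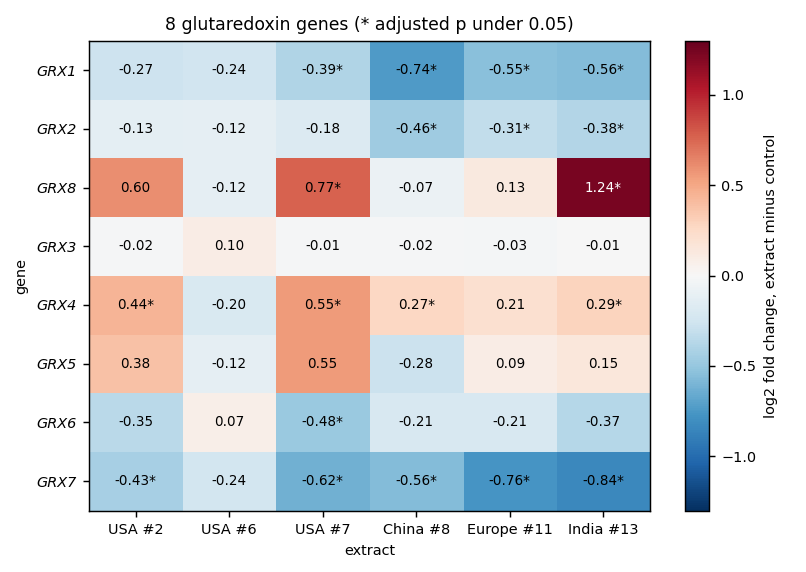
Log2 fold change (colour and printed value, extract minus control) of the 8 glutaredoxin genes (rows) with the 6 extracts (columns), with an asterisk where the adjusted p was under 0.05. GRX1, GRX2 and GRX7 are below 0 in every column, GRX8 reaches 1.24 with India #13, and GRX3 stays between -0.03 and 0.10 beside its paralog GRX4.

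The list of other glutathione genes holds 24 genes, all measured. Most calls were made with China #8, where 4 rose and 10 fell, followed by USA #7 (5 rose, 7 fell) and India #13 (7 rose, 5 fell). Over all probe sets the calls in either direction were 40%, 39.6% and 28.8% with these extracts. GPX1, a glutathione peroxidase, fell by 1.08 with China #8 (SE 0.14, adjusted p = 4.65e-05) and by 0.83 with Europe #11. GPX2, another peroxidase gene, rose with all 6 extracts, from 0.32 with India #13 (adjusted p = 0.0342) to 0.89 with USA #7 (adjusted p = 3.90e-05). DUG3, part of the complex that degrades glutathione, rose by 1.65 with India #13 (SE 0.11, adjusted p = 4.55e-07). With all extracts, GRX7 (-0.63, Bonferroni-adjusted p = 0.0206) and GLO2, a glyoxalase that uses glutathione (-0.43, Bonferroni-adjusted p = 0.0351), passed in limma. The median of this list was -0.21 with China #8, beside 0.004 over all probe sets, and -0.02 with India #13.

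Among 14 other thioredoxin genes and thioredoxin-dependent enzymes, 1 rose and 5 fell with China #8, and 4 rose and 2 fell with USA #7, beside 40% and 39.6% of all probe sets called in either direction. TSA2, a stress-inducible peroxiredoxin, fell by 1.45 with China #8 (SE 0.25, adjusted p = 4.13e-04), and with USA #7 its log2 fold change was -1.48 (SE 0.30, adjusted p = 0.00211). PRX1, the mitochondrial peroxiredoxin, fell by 0.77 with China #8 (adjusted p = 2.91e-05), and RNR1, the large subunit of ribonucleotide reductase, rose by 0.54 (adjusted p = 2.06e-04). None of the 14 was called with USA #2 or USA #6 in limma, where 4 and 2 had an unadjusted p under 0.05. The medians lay between -0.12 and 0.12.

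Of 10 regulators that act with Yap1 and Skn7 or on sulfur and stress genes, SKN7 itself rose with China #8 (0.56, SE 0.08, adjusted p = 1.02e-04), Europe #11, India #13 and USA #7. YAP5, which is known to activate GRX4 when iron is high, rose by 0.74 with India #13 (SE 0.10, adjusted p = 1.56e-04). At most 2 of the 10 were called with any extract. With China #8 and with USA #7, 1 rose and 1 fell. Those that fell were YBP1 with China #8 (-0.36, SE 0.10, adjusted p = 0.0116) and MET4 with USA #7 (-0.50, SE 0.16, adjusted p = 0.0220). With Europe #11 and with India #13, 2 rose and 0 fell. Of all probe sets, 39.6% were called with USA #7, 40% with China #8, 22.4% with Europe #11 and 28.8% with India #13. None of the 10 was called in limma with USA #2 or USA #6, beside 19.1% and 7.02% of all probe sets. With each of these, 1 had an unadjusted p under 0.05. Of 13 genes of NADPH supply, 3 rose and 3 fell with China #8 and with USA #7, and 2 rose and 2 fell with India #13. With USA #2, 2 rose and 0 fell, and with USA #6 and Europe #11 only 1 rose. GND1, the main 6-phosphogluconate dehydrogenase, rose with all 6 extracts, by 0.22 to 0.46. Its paralog GND2 fell by 1.73 with China #8 (SE 0.36, adjusted p = 0.00183). It fell also with USA #7 (-1.35, adjusted p = 0.0280) and India #13 (-1.37, adjusted p = 0.0338).

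Cysteine limits glutathione synthesis, and among the 12 genes of cysteine and sulfur supply the most calls were made with India #13. With India #13, 8 of the 12 rose and none fell, beside 14.2% of all probe sets that rose, with a median of 0.77 beside 0.02 over all probe sets. MET2 rose by 2.25 (SE 0.25, adjusted p = 2.46e-05) and STR3, a cystathionine beta-lyase, by 2.18 (SE 0.16, adjusted p = 7.23e-07). With USA #7, 1 rose and 5 fell, with a median of -0.38, beside 20.4% of all probe sets that rose and 19.1% that fell. With Europe #11, 0 were called in limma, beside 22.4% of all probe sets, and 2 had an unadjusted p under 0.05. The F-test over the extracts called 9 of these 12 genes, beside 29.7% of all probe sets. GSH1 had its highest mean with India #13 and its lowest means with USA #2 (10.1754) and USA #7 (10.1772). With USA #2, 2 of the 12 genes rose and 1 fell, with a median of 0.02, beside 10.7% and 8.48% of all probe sets. With USA #6, 0 rose and 1 fell, beside 4.11% and 2.9%. The median with USA #6 was -0.25, and GSH1 differed from control by 0.07 (adjusted p = 0.821). A likeness of GSH1 to this list was not tested.

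The partners of Grx4 and Grx5 in iron sensing and iron-sulfur assembly were represented by 17 of 18 genes. Among them 4 rose with USA #2 and Europe #11, 5 with USA #7 and India #13, 6 with China #8 and 1 with USA #6, and 1 fell with USA #7 and with China #8. Of all probe sets, 10.7% rose with USA #2, 12.4% with Europe #11, 20.4% with USA #7, 14.2% with India #13, 19.9% with China #8 and 4.11% with USA #6. ISU2, a scaffold for the clusters, rose with all 6 extracts, from 0.83 with China #8 (SE 0.16, adjusted p = 0.00117) to 1.74 with India #13 (SE 0.20, adjusted p = 3.60e-05). Of 6 superoxide and peroxide enzymes, CTT1, the cytosolic catalase, fell by 1.34 with India #13 and 1.24 with China #8 (adjusted p = 0.00343 and 7.06e-04). It fell also with USA #7 (-1.15, adjusted p = 0.00585) and USA #2 (-0.87, adjusted p = 0.0443). With China #8, 1 of the 6 rose and 3 fell, among them SOD2 and SOD1, beside 40% of all probe sets called in either direction. With USA #7 and India #13, 2 rose and 1 fell, beside 39.6% and 28.8%. With USA #2, 1 rose and 1 fell, beside 19.1%, and with Europe #11 only 1 rose, beside 22.4%. CCS1, the copper chaperone of superoxide dismutase, rose with 5 extracts, by 0.42 to 1.00.

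**Figure D5:**
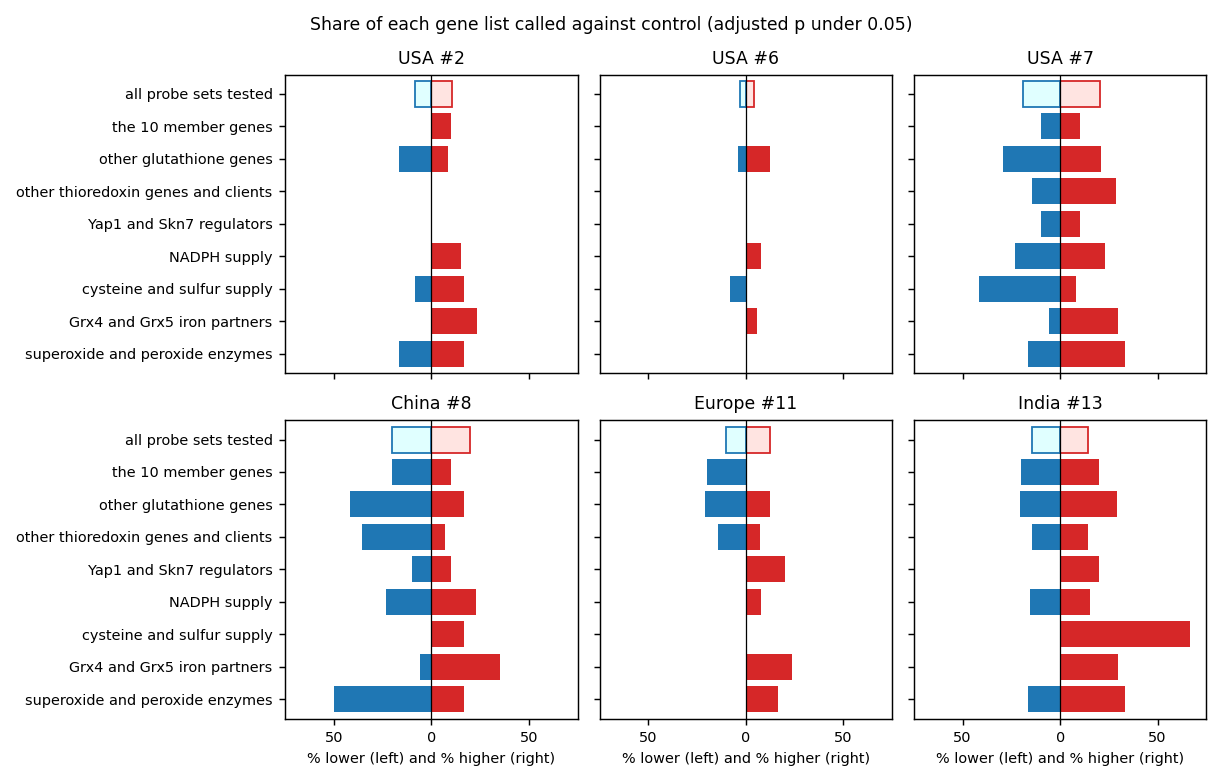
Percent of the measured genes of each list called lower (left of 0) or higher (right of 0) than control at an adjusted p under 0.05, in a panel for each extract, with the share over all probe sets tested as the open bars. The longest bar is that of cysteine and sulfur supply with India #13, where 8 of 12 genes rose. Of the 10 member genes, at most 2 were called higher and at most 2 lower with any extract.

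The genes whose signal followed a member most closely over the 18 arrays were read by Pearson's r, for the 3 members with the widest span of condition means. These arrays share conditions, batches and normalization, so r is a description. GRX2 itself was second in likeness to GRX1, with r = 0.95, after STF1 (0.96), a stabilizer of the inhibited ATP synthase, and before RDL1 (0.95), AYR1 (0.95) and the glyoxalase gene GLO2 (0.93). For GRX5 they were PFA4 (0.99), IRC21 (0.97), UGA4 (0.97), FMP41 (0.96) and YOR131C (0.96). The genes nearest to GRX4 were less alike, with DLT1 at 0.91, ROG1 at 0.90, ROT1 at 0.88, MEU1 at 0.88 and LYS9 at 0.87.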

How the data were processed

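The authors had targets made from total RNA, labelled with biotin and hybridized to Affymetrix arrays of the type Yeast Genome 2.0, and applied RMA (background correction, quantile normalization and summary of the probes of a probe set), for which no version was found in the sources used. The deposited values, 5900 probe sets by 18 arrays, are log2 signals and were not changed. Quantile normalization equalizes the arrays, so a shift of most genes in the same direction cannot be seen, and RMA signals can understate large changes. Set aside were 137 spike and control probe sets and 47 reporter probe sets, which left 5716, of which 5498 carry 1 gene name, 218 none and 0 several. The platform annotation gave the names, and 12 were updated through the gene ID.

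Groups came from the sample labels. All comparisons used limma 3.58.1 (lmFit and eBayes) in R 4.3.3, tested on simulated data first. Single extracts, the F-test and the 15 pairs of extracts came from a model with 7 groups over all 18 arrays, with Benjamini-Hochberg adjustment over all probe sets (and over all pairs). The contrast of all extracts left out USA #6 and used the Bonferroni correction, after the study's methods. A gene was called at an adjusted p under 0.05. Nothing in the labels pairs arrays across groups, and what the date in a sample title refers to is not given. Where replicates share a source, p-values measure only the spread between these arrays.

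The members and gene lists were chosen with earlier results of these data known, and no list is independent support. All members are named. Of each list at most 4 genes are named in a contrast, those of smallest p with all extracts or of largest change among those called with a single extract. For likeness, 5 genes are named for each of 3 members. The remaining glutaredoxins, and GPX2, GND1, ISU2, SKN7 and CCS1 across all extracts, are given in full, which was chosen after their values were seen. Of 97 genes in the lists, 96 were matched, and all 10 members were matched as well. No sequences or genome positions were used here. Alternatives covered the probe sets tested, dim probe sets, scaling, batch, the replicate number, the priors, the adjustment, the samples in the model and each array left out.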

Additional observations from a re-analysis of the deposited data

Results flagged for a closer look

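In groups of 4 arrays, a single array lay far from the other 3 for 11 of 142 combinations of gene and group tested over the members and lists (71 genes, control and China #8), where chance alone marks about 1 in 20. Among the members, control replicate 2 was high for TRX1, at a log2 signal of 13.54 beside 13.34 to 13.37 on the other control arrays, and for TRX2, at 13.61 beside 13.52 to 13.54. The same array was high for GRX8, at 8.988 beside 8.37 to 8.46, for GTO1, an omega-class glutathione transferase, at 7.957 beside 7.76 to 7.79, and for MET16, which reduces activated sulfate with thioredoxin, at 9.984 beside 9.31 to 9.33.

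Other control arrays stood apart for single genes. Control replicate 1 was low for GRX7, at 11.67 beside 11.96 to 12.004, and control replicate 3 was low for STR3, at 8.944 beside 9.64 to 9.73. Control replicate 4 was low for ALD6, an NADPH-producing aldehyde dehydrogenase, at 12.86 beside 13.22 to 13.29, and high for the iron regulator AFT1, at 8.858 beside 8.56 to 8.603. With China #8, replicate 1 was low for ISA1, an iron-sulfur assembly factor, at 10.94 beside 11.11 to 11.14, and replicate 2 was low for IDP2, a cytosolic isocitrate dehydrogenase, at 7.853 beside 7.93 to 7.95.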

How the results depend on the processing

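GRX1 was lower than control with China #8 at an adjusted p under 0.05 in all 30 alternatives, and no estimate of a member that was called changed its sign. The counts of members called moved as follows from 1 (USA #2), 0 (USA #6), 2 (USA #7), 3 (China #8), 2 (Europe #11), 4 (India #13), 0 (all extracts), 4 (F-test) and 12 (pairs). With batch as a block they were 2 for USA #2, 5 for USA #7, 4 for Europe #11, 7 for the F-test and 29 for the pairs. With batch 2 alone they were 2 for USA #2, 5 for China #8, 8 for the F-test and 36 for the pairs, and with batch 1 alone 1 for China #8. The replicate block (batch and title number together) gave 3 for USA #2, 5 for USA #7, 4 for Europe #11, 7 for India #13, 8 for the F-test and 35 for the pairs. Deviations of same-numbered arrays of control and China #8 correlated at 0.37, 0.70, 0.13 and 0.41, batch differences included, and at 0.75 within batch 1. Within batch 2 they correlated at -0.38 to 0.57 and over 0.1 in 7 of 21 pairs of groups, so the numbers were not taken to pair the arrays. Trend and robust priors gave 2 for USA #2, 4 for USA #7 and 5 for China #8, and leaving out dim probe sets 2 for USA #2. Exchanging the corrections gave 0 for USA #2, USA #7, Europe #11, India #13, the F-test and the pairs, 1 for China #8 and 3 for all extracts. A model of only the extract and control gave 0 for USA #2 and 1 for Europe #11 and India #13. On leaving out the batch 2 arrays of control and China #8, India #13 had 2. Leaving out each array in turn gave 0 to 2 for USA #2, 0 to 0 for USA #6, 1 to 3 for USA #7, 3 to 4 for China #8, 1 to 2 for Europe #11, 2 to 4 for India #13, 0 to 0 for all extracts, 2 to 5 for the F-test, 4 to 15 for the pairs and 0 to 0 for the China #8 response by batch, where a lone array is assumed to vary like the other groups. The change of MET3 with USA #2 turned to 0.25 with batch as a block, 0.27 with batch 2 alone and 0.25 with the replicate block, and that of MET14 to 0.27 with batch 2 alone and 0.28 with the replicate block. The cause of these shifts was not tested. Median scaling of the arrays and quantile normalization of the probe sets changed no count of members called by more than 1.5 times. Both lost the call of GRX2 in the F-test (adjusted p = 0.0513 and 0.0544). The number of arrays, 2 for 5 of the extracts, limits the precision of small differences.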
